A study of Mus musculus with 3 samples.

Results

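The 5-hydroxymethylcytosine (5hmC) level in mouse cerebellum was examined over 8 genes for enzymes that build or modify the sugar chains of glycoproteins, glycolipids and proteoglycans. They are the fucosyltransferase genes Fut8 and Fut9, the sialyltransferase genes St3gal3 and St6galnac3, the heparan sulfate sulfotransferase genes Hs6st2, Hs6st3 and Hs3st4, and Mgat4c, which belongs to neither group and is named for the N-acetylglucosaminyltransferases that branch N-glycans. The genes were taken by symbol, and all 8 were found among the 1091 protein-coding genes that cover at least 20 bins of 10 kb. Together their RefSeq bodies overlap 340 of the 264399 bins in the deposited table. They were chosen by the family of their enzymes with their gene-body 5hmC levels in these libraries already known, so those levels are given as a description and no test was made on them.

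Genomic DNA of mouse cerebellum was profiled in 3 libraries, with 1 library per group. The groups were cerebellum after chronic sleep deprivation profiled by DDD-seq, control cerebellum profiled by ACE-seq, and control cerebellum profiled by DDD-seq. Strain, sex, age, the number of animals and how long sleep was deprived are not given in the sources used here. DDD-seq protects 5hmC with a glucose and then treats the DNA with the deaminase SsdAcat, and cytosines that stay unconverted are read as 5hmC. ACE-seq is another deaminase method that protects glycosylated 5hmC. The labels give all 3 libraries the same protocol text, so the deaminase used for ACE-seq is not given separately. Each group has a single set of deposited values, called a library here, although both DDD-seq sets may join several runs or libraries. Neither an error between replicates nor a p-value can therefore be given. Each standard error (SE) below is taken over the bins of a gene and measures scatter along that gene in 1 library, with bins treated as independent.

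5hmC is made from 5-methylcytosine by the TET dioxygenases, is abundant in neurons, and in brain lies mainly in the bodies of active genes. Fucose and sialic acid are added in the Golgi to the inner or outer parts of glycans, where they change how surface proteins bind their partners. Heparan sulfate is a long chain carried by syndecans, glypicans and other core proteins, and the pattern of sulfate groups along it sets which growth factors and guidance proteins it binds.

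Across the genome the mean level per bin was 1.55% in the sleep-deprived library, 1.50% in the ACE-seq control and 1.54% in the DDD-seq control, and the median over the 1091 gene bodies was 1.73%, 1.69% and 1.74% in the same order. Read counts are not part of the table, and the depth is therefore unknown. Of 8 granule cell marker genes, 4 covered at least 5 bins and had levels between 1.57% and 6.70% in the sleep-deprived library, between 1.62% and 6.42% in the ACE-seq control and between 1.59% and 6.52% in the DDD-seq control, with Etv1 highest and Grm4 lowest in each. Of 4 measured Purkinje cell marker genes, Plcb4 reached 3%, with 3.38%, 3.20% and 3.25% in the same order of libraries. None of the measured marker genes of oligodendrocytes (3), astrocytes and Bergmann glia (3), microglia (2) or endothelium (4) reached 3% in any library. Over all 6664 genes of at least 5 bins, only 5.69%, 5.57% and 6.08% reached it, so nothing is read from these few genes. The highest of them was the endothelial gene Emcn, with 2.89%, 2.79% and 2.83%. These are levels in bulk DNA, in which the share of cells that carry 5hmC at a locus and the level per cell cannot be told apart.

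Both fucosyltransferase genes stood well above the other 6. Fut8 and Fut9 had gene-body levels near 5% in all 3 libraries, whereas Hs6st2, Hs6st3, St6galnac3, St3gal3, Hs3st4 and Mgat4c lay between 1.45% and 2.45%. A body level of at least 3% was reached by 2 of the 8 genes in each library, Fut8 and Fut9. Over all 1091 genes this level was reached by 10.8% in the sleep-deprived library, 8.98% in the ACE-seq control and 10.6% in the DDD-seq control. Because the genes were chosen with their levels known, nothing is read from this count. The median of the 8 genes was 1.88%, 1.82% and 1.96% in the same order.

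**Figure D1:**
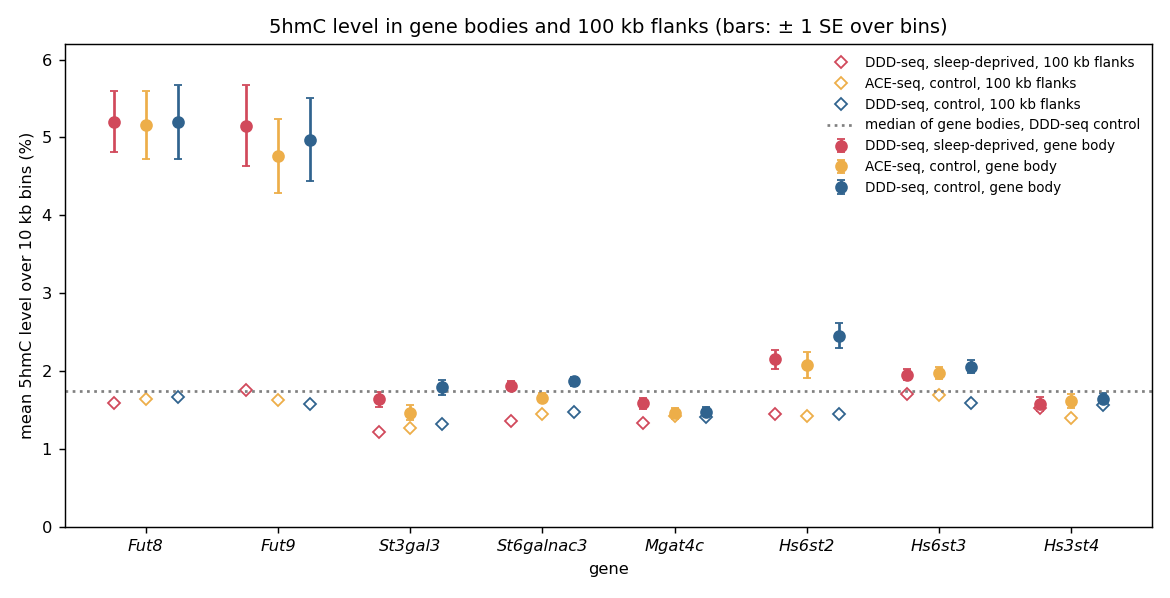
Mean 5hmC level in percent (vertical axis) of each gene (horizontal axis) in the sleep-deprived DDD-seq, ACE-seq control and DDD-seq control libraries, with filled circles for the gene body, bars for ± 1 SE over its bins, open diamonds for the 100 kb flanks and a dotted line for the median of 1091 gene bodies in the DDD-seq control. Fut8 and Fut9 lie between 4.76% and 5.20% with flanks between 1.57% and 1.75%, and the other 6 genes lie at or below 2.45%.

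In the DDD-seq control the order of the levels was Fut8, Fut9, Hs6st2, Hs6st3, St6galnac3, St3gal3, Hs3st4 and Mgat4c. Fut8 exceeded Fut9 by 0.230 percentage points, less than the SE of that difference (0.712), so these neighbours did not differ beyond their scatter. The step from Fut9 to Hs6st2 was 2.52 points, or 4.56 times its SE, and was the widest in every library. The step from Hs6st2 to Hs6st3 was 0.397 points (2.20 SE) in the DDD-seq control, 0.195 points (1.35 SE) after sleep deprivation and 0.0968 points (0.527 SE) by ACE-seq. Below it, neighbouring genes in the DDD-seq control differed by at most 1.86 SE. In the ACE-seq control, Hs6st3 exceeded St6galnac3 by 3.24 SE, and the last 4 places were taken by St6galnac3, Hs3st4, St3gal3 and Mgat4c. Because the genes were chosen with these levels known and then sorted by them, the steps are descriptions. Their multiples of the SE over bins are not tests.

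Fut8 encodes the core fucosyltransferase, which adds fucose to the innermost sugar of N-glycans. Its body lies at chr12:77237430-77475998 (GRCm38, plus strand) and overlaps 25 bins and no other protein-coding gene. Its level was 5.20% ± 0.387 in the sleep-deprived library, 5.16% ± 0.439 in the ACE-seq control and 5.20% ± 0.476 in the DDD-seq control (SE over 25 bins), which placed it 7 from the top among 1091 genes in each library. The 3 libraries thus gave nearly the same mean. The 100 kb on either side had 1.59%, 1.64% and 1.67% in the same order, so the body was 3.27, 3.15 and 3.12 times its flanks, and 23, 20 and 23 of the 25 bins exceeded the highest of the 20 flank bins. No protein-coding gene overlapped those flank bins.

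The widest step at an edge of Fut8 was at its start. The bin that holds its start (77230001 to 77240000) had 1.35% in the sleep-deprived library, 1.13% in the ACE-seq control and 1.21% in the DDD-seq control, the lowest of the 25 in each library. The next bin, wholly inside the gene, had 6.84%, 8.23% and 7.34%. At the other end, the last bin of the gene had 3.73%, 2.98% and 3.94%, and the first bin beyond it 2.08%, 1.62% and 2.34%, a step smaller than the SD over bins in each library. Inside the gene, bins ranged up to 9.89% in the sleep-deprived library, 9.64% in the ACE-seq control and 9.79% in the DDD-seq control, and the highest bin was a different one in each. The lowest bin past the start bin was the one at 77380001 to 77390000 in both DDD-seq libraries, with 2.05% after sleep deprivation, against 1.31% in the DDD-seq control, whereas by ACE-seq it had 3.62% and the lowest was at 77280001 to 77290000 with 1.81%. Of the 25 bins, 14, 11 and 10 belonged to the top 1% of all bins of their library, and 8 did so in all 3.

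Fut9 encodes the fucosyltransferase that makes the Lewis x sugar structure in brain. Its body at chr4:25609333-25800003 overlaps 21 bins and no other gene of the table. The level was 5.15% ± 0.524 in the sleep-deprived library, 4.76% ± 0.478 in the ACE-seq control and 4.97% ± 0.530 in the DDD-seq control (SE over 21 bins), at places 8, 13 and 13 from the top. Differences between libraries were smaller than these errors. The flanks had 1.75%, 1.63% and 1.57%, giving ratios of 2.94, 2.92 and 3.16, and no protein-coding gene overlapped the flank bins. Here 14, 8 and 15 of the 21 bins exceeded the highest flank bin.

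The same stretches of Fut9 were high in every library. The bin at 25610001 to 25620000 had 10.2% in the sleep-deprived library, 9.28% in the ACE-seq control and 11.2% in the DDD-seq control. The bin at 25780001 to 25790000 had 10.3%, 10.4% and 8.06%, so that the peaks lay close to both ends of the gene. Between them the bin at 25710001 to 25720000 had only 1.81%, 2.49% and 1.96%. Across the 21 bins Spearman's rho against the DDD-seq control was 0.798 for the sleep-deprived library and 0.861 for the ACE-seq control. For Fut8 these values were 0.697 and 0.784 over 25 bins. For the other 6 genes rho ranged between 0.0901 (Mgat4c) and 0.525 (St3gal3) for the sleep-deprived library and between 0.134 (Mgat4c) and 0.591 (Hs6st3) for the ACE-seq control. These are descriptions across bins of 1 gene, which share base composition and mappability in every library. The correlations at the 6 low genes were all below those at Fut8 and Fut9, and were weak at Mgat4c.

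**Figure D2:**
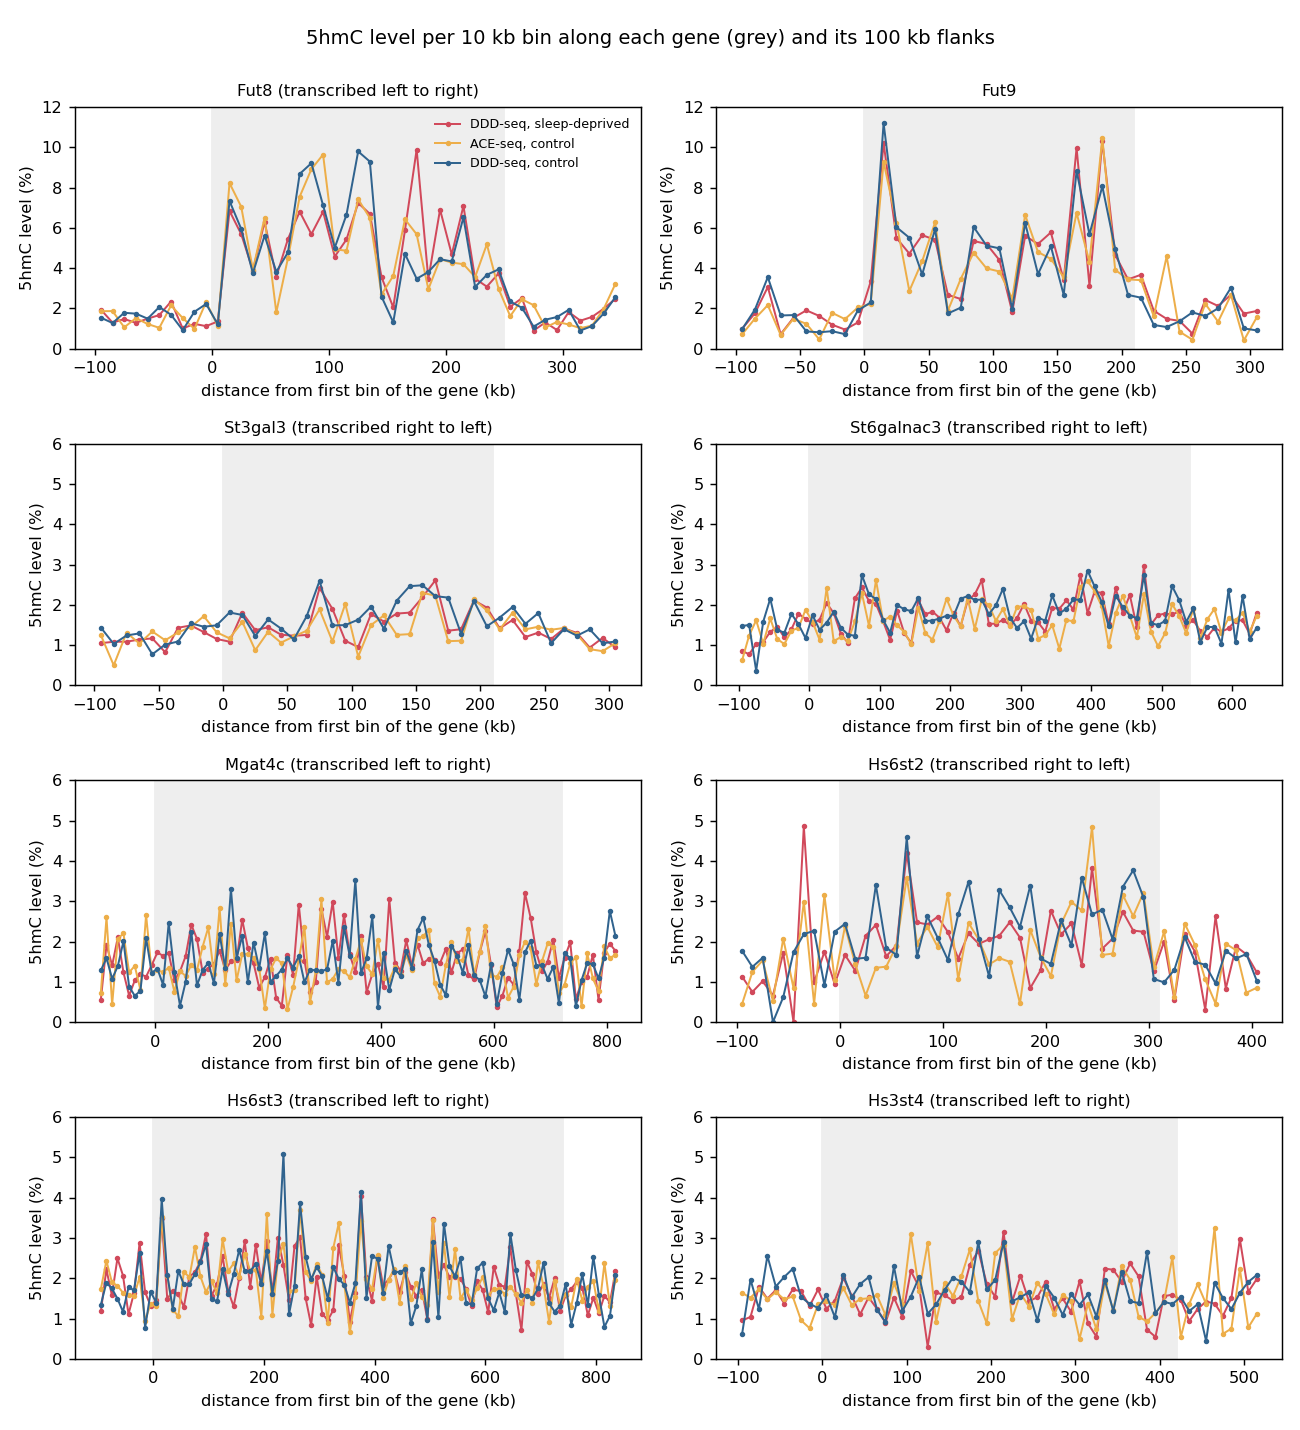
5hmC level in percent of each 10 kb bin (vertical axis, up to 12% for Fut8 and Fut9 and up to 6% for the rest) against distance in kb from the first bin of the gene, with the gene body shaded, 100 kb flanks on both sides and 1 line for each of the sleep-deprived DDD-seq, ACE-seq control and DDD-seq control libraries. The bodies of Fut8 and Fut9 stand above their flanks in all 3 libraries, with peaks between 9.28% and 11.2% near the low-coordinate end of Fut9, whereas Hs3st4 and Mgat4c are close to the level of their flanks.

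St3gal3 and St6galnac3 encode sialyltransferases that attach sialic acid to galactose and to N-acetylgalactosamine. St3gal3 (chr4:117932152-118134972, minus strand, 21 bins) had 1.64% ± 0.0987 in the sleep-deprived library, 1.47% ± 0.100 in the ACE-seq control and 1.79% ± 0.0947 in the DDD-seq control. St6galnac3 (chr3:153198274-153725133, minus strand, 54 bins) had 1.81% ± 0.0554, 1.66% ± 0.0613 and 1.87% ± 0.0532. Both lay near the median of all genes in the DDD-seq libraries. By ACE-seq St6galnac3 did so too, whereas St3gal3 lay lower, with 31.5% of genes below it. The order among the libraries was the same for both genes, with the ACE-seq control lowest and the DDD-seq control highest. Body over flank was 1.35, 1.16 and 1.35 for St3gal3 and 1.33, 1.14 and 1.27 for St6galnac3. The surroundings of the 2 genes differ, since 19 of the 20 flank bins of St3gal3 overlap other protein-coding genes and none of those of St6galnac3 does. St3gal3 also shares 2 of its own bins with the neighbours Artn and Kdm4a. In both genes the level declined in the direction of transcription in every library. In St3gal3, successive runs of 7 bins had 1.91%, 1.64% and 1.35% after sleep deprivation. They had 1.71%, 1.46% and 1.23% by ACE-seq, and 2.03%, 1.81% and 1.53% in the DDD-seq control. In St6galnac3, successive runs of 18 bins had 1.98%, 1.75% and 1.71% after sleep deprivation. They had 1.74%, 1.68% and 1.56% by ACE-seq, and 2.01%, 1.84% and 1.76% in the DDD-seq control. Hs6st3 declined likewise in both controls and Hs6st2 in the DDD-seq control, but neither did so after sleep deprivation. No share over all genes was taken for this decline, so nothing is read from it.

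Mgat4c, on chr10:101681487-102391851 (plus strand), spans 72 bins and had the lowest level of the 8 genes in both controls. It had 1.59% ± 0.0721 in the sleep-deprived library, 1.45% ± 0.0652 in the ACE-seq control and 1.47% ± 0.0728 in the DDD-seq control. Its flanks had 1.33%, 1.42% and 1.41%, so the body was 1.19, 1.02 and 1.04 times as high. Neither Mgat4c nor any other of the 6 lower genes had a bin in the top 1% of its library, and the highest bin of Mgat4c had 3.20%, 3.04% and 3.53%.

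Hs6st2 and Hs6st3 encode 6-O-sulfotransferases that act on glucosamine in heparan sulfate, and Hs3st4 encodes one that acts at another position of the same sugar. Hs6st2 (chrX:51386637-51681705, minus strand, 31 bins) was the highest of the 3 genes, with 2.15% ± 0.123 in the sleep-deprived library, 2.08% ± 0.166 in the ACE-seq control and 2.45% ± 0.157 in the DDD-seq control. Its flanks had 1.44%, 1.42% and 1.45%, so that its ratio of body to flank was 1.49, 1.46 and 1.69. The bin at 51440001 to 51450000 had 4.20%, 3.59% and 4.58% and was the highest of the gene in both DDD-seq libraries. The bin at 51620001 to 51630000 had 3.82%, 4.84% and 2.67% and was the highest by ACE-seq. Of the 31 bins, 0, 5 and 17 exceeded the highest flank bin, which had 4.86%, 3.15% and 2.27%. Hs6st3 (chr14:119137516-119869815, plus strand, 74 bins), the longest of the 8 genes, had 1.96% ± 0.0764, 1.98% ± 0.0778 and 2.06% ± 0.0883, with ratios of 1.15, 1.17 and 1.30. Hs3st4 (chr7:123982366-124398989, plus strand, 42 bins) had 1.58% ± 0.0895, 1.61% ± 0.0937 and 1.64% ± 0.0744, and its ratios of 1.04, 1.16 and 1.04 put it close to its flanks.

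A ratio of body to flank of at least 1.5 was met by 2 genes in the sleep-deprived library, 2 in the ACE-seq control and 3 in the DDD-seq control, where Hs6st2 joined Fut8 and Fut9. Over all genes this ratio was met by 24.9%, 27.1% and 25.6%, so the share among the 8 genes was near that of the genome. Hs6st2 rests close to this bound: with flanks of 50 kb its ratio was 1.40, 1.24 and 1.47, and with flanks of 200 kb it was 1.62, 1.60 and 1.89.

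The RefSeq promoter table (GRCm38.p6) held 7 of the 8 genes, with 14 annotated starts in all. A promoter is printed for 5 genes to show the range of CG content, with Hs3st4 the richest and Mgat4c the poorest of the first starts, beside Fut8 and both 6-O-sulfotransferase genes. For Fut8 and Hs6st2 the CG-richest window of the start bin is shown, and for Mgat4c the one at its first start. Each window runs from 250 bases before to 50 bases after the annotated start, in the direction of transcription, and capitals mark the dinucleotide CG, which reads the same on both strands and is the main site of cytosine methylation.
Fut8, chr12:77238489-77238788 (+): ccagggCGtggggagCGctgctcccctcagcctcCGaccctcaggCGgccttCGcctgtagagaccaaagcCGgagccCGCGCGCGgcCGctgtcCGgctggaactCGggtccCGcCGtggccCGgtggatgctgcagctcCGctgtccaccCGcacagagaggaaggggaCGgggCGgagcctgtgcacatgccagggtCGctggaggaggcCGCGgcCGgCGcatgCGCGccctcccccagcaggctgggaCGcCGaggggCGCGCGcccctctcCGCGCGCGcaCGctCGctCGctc
Hs6st2, chrX:51680428-51680727 (-): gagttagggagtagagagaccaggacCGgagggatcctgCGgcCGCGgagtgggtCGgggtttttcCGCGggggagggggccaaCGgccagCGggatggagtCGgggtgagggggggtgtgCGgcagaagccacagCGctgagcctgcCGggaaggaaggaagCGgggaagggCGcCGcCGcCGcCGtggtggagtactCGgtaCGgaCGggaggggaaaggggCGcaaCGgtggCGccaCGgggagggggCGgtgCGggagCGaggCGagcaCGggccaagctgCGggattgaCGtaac
Hs6st3, chr14:119138015-119138314 (+): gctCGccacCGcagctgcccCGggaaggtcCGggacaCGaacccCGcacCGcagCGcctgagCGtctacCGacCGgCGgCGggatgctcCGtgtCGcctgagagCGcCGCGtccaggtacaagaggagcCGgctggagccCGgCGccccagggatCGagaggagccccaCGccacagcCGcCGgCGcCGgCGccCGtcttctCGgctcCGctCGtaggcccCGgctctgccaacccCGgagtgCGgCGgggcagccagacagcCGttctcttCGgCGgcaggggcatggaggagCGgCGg
Hs3st4, chr7:123982578-123982877 (+): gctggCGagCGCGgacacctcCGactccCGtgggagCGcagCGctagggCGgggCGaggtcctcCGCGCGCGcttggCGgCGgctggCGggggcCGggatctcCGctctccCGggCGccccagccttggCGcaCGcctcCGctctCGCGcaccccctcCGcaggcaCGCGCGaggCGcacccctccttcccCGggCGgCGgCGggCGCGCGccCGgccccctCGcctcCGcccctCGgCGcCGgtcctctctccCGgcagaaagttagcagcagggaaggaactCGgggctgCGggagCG
Mgat4c, chr10:101681237-101681536 (+): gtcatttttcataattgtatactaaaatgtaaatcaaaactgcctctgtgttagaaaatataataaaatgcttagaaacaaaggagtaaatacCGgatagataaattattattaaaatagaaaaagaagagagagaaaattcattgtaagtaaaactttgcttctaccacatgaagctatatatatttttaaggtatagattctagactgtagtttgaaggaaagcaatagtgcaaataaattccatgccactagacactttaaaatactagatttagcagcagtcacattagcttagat

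The printed windows hold 39 CG for Fut8, 33 for Hs6st2, 41 for Hs6st3, 47 for Hs3st4 and 1 for Mgat4c. The start bin of Fut8 holds another window with 18 CG, and 2 later starts of Fut8 have 0 and 4. A further window of Hs6st2 in the same bin has 12 CG, and the 3 later starts of Mgat4c have 7, 10 and 6. At least 1 CG is present in 94.6% of the 32851 promoter windows of the table, and their median is 7. Of all windows, 4.45% hold as many as Fut8, 8.56% as many as Hs6st2, 3.46% as many as Hs6st3, 1.44% as many as Hs3st4, and 14.1% hold as few as Mgat4c. The single windows of St3gal3 and St6galnac3 have 26 and 20 CG.

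The level of the start bin was below that of the next bin in every library in 5 of the 7 genes, Fut8, Hs6st2, Hs6st3, St3gal3 and St6galnac3. No share over all genes was taken for this order of the first bins, so nothing is read from this count. Hs6st3 had 1.46% in its start bin in the sleep-deprived library, 1.32% in the ACE-seq control and 1.40% in the DDD-seq control, against 3.49%, 3.51% and 3.96% in the next bin. Hs6st2 had 1.26%, 1.36% and 1.07% in its start bin, against 2.24%, 3.21% and 3.09% in the next. St6galnac3 had 1.49%, 1.30% and 1.57% in its start bin, against 1.83%, 1.72% and 2.12% in the next, and St3gal3 had 1.93%, 1.86% and 1.47%, against 2.11%, 2.14% and 2.09%. For Mgat4c the start bin had 1.73%, 1.28% and 1.33% and the next bin 1.64%, 1.24% and 0.926%. Hs3st4, the richest in CG, had 1.24%, 1.42% and 1.57% in the start bin and 1.44%, 1.34% and 1.03% in the next, so that its start bin was lower in the sleep-deprived library alone and higher in both controls. Counted against the mean of all later bins, the start bin was lower in 5 of 7 genes in the sleep-deprived library, 6 of 7 in the ACE-seq control and 7 of 7 in the DDD-seq control. Among 826 genes of at least 20 bins with a known strand, the start bin was lower in 77.7%, 74.2% and 76.5%, so these counts are near those of genes at large. A start bin also reaches upstream of the gene: only 25.7% of it lies in Fut8, 17.1% in Hs6st2 and 24.9% in Hs6st3, against 85.1% in Mgat4c and 76.4% in Hs3st4. The part that this overlap plays in the low start bins of these genes was not tested. Over the 199 genes with at least 75% of the start bin inside the gene, it was lower in 73.4%, 70.4% and 70.9%.

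Genes of the same pathways were compared by lists of fucosyltransferases, sialyltransferases, heparan sulfate enzymes and core proteins, and N-glycan branching enzymes. Of 83 listed genes, 51 covered at least 5 bins. Outside the 8 genes, 2 of the 43 measured genes reached 3% in each library, against 5.69% of all 6664 genes of that size in the sleep-deprived library, 5.57% in the ACE-seq control and 6.08% in the DDD-seq control. The median of the 43 genes was 1.57%, 1.49% and 1.58%, and that of the 6664 genes 1.53%, 1.49% and 1.54%. The lists as a whole were therefore at the level of genes at large.

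The 2 further genes at or above 3% both serve heparan sulfate. Ndst3, which encodes a deacetylase and sulfotransferase that starts the sulfation of the chain, had 4.53% in the sleep-deprived library, 4.68% in the ACE-seq control and 4.40% in the DDD-seq control. Glce, which encodes the epimerase that turns glucuronic into iduronic acid, had 3.76%, 4.01% and 4.72%. Ext1, a polymerase gene of the chain, came just below with 2.97%, 2.86% and 2.93%. Among the 12 measured sulfotransferase genes of this pathway the median was 1.61%, 1.60% and 1.56%, and Hs3st3a1 was lowest in the DDD-seq control with 1.02%. The 5 chain-making genes had a median of 1.59%, 1.76% and 1.74%, with Xylt1 lowest at 1.35%, 1.25% and 1.43%.

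The remaining lists held no gene at 3%, apart from Fut8 and Fut9. Only 3 of 10 fucosyltransferase genes were long enough to be measured, and the third, Fut10, had 1.56% in the sleep-deprived library, 1.60% in the ACE-seq control and 1.58% in the DDD-seq control. The 15 measured sialyltransferase genes had a median of 1.64%, 1.47% and 1.61%. In the DDD-seq control St8sia1, a ganglioside sialyltransferase gene, was highest with 2.45%. St3gal1 was lowest there, and had 1.07% after sleep deprivation and 1.01% by ACE-seq. The 4 genes listed for heparan sulfate editing (Sulf1, Sulf2, Hpse and Hpse2) had a median of 1.21%, 1.20% and 1.33%, with Hpse highest at 1.35% and Sulf2 lowest at 1.22% in the DDD-seq control. The 6 core protein genes had a median of 1.60%, 1.51% and 1.59%, with the syndecan gene Sdc2 at 2.46% and the perlecan gene Hspg2 at 1.11% in the DDD-seq control. The 6 branching enzyme genes had a median of 1.62%, 1.76% and 1.60%, and ranged in the DDD-seq control from Man2a1, a Golgi mannosidase gene, with 2.18% to Mgat5b with 1.34%.

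**Figure D3:**
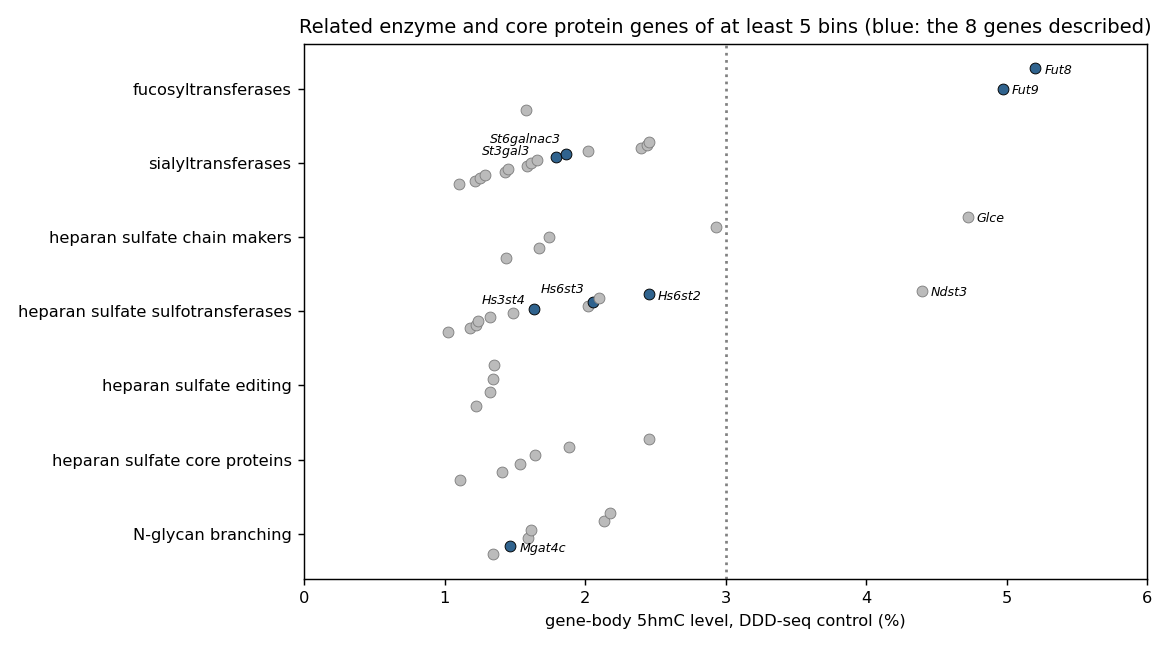
Gene-body 5hmC level in percent in the DDD-seq control (horizontal axis) of the 51 measured genes by list (vertical axis, spread within a list only to keep points apart), with 1 point per gene, the 8 genes described in blue, the others in grey and a dotted line at 3%. Right of the line are Fut8, Fut9, Glce and Ndst3, while the other points lie between 1.02% and 2.93%.

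The first comparison was between sleep-deprived and control cerebellum by DDD-seq, 1 library of each. Chronic sleep deprivation therefore cannot be told apart from any other difference between these libraries. Of the 8 genes, 1 differed by at least 1.1-fold, Hs6st2, which was lower. Over the 1091 genes, 4.77% were lower and 5.41% were higher by this margin, or 10.2% in either direction, so a count of 1 in 8 is near the background. Hs6st2 was also the only one of the 8 that differed by at least 0.25 points, as 3.12% of all genes did. Hs6st2 had 2.15% after sleep deprivation, against 2.45% in the DDD-seq control, a difference of -0.305 ± 0.164 points (SE over 31 bins, 1.85 SE) and a ratio of 0.876, with 20 of 31 bins lower. No gene of the 8 differed by more than 3 SE, against 0.183% of all genes that were lower and 0.183% that were higher. Genes on the X chromosome were more spread in this comparison: of 49 genes, 16.3% were lower and 12.2% higher by 1.1-fold, against 4.22% and 5.09% of 1042 autosomal genes. The part of that spread in the Hs6st2 value was not tested.

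Fut8 had the same mean in both DDD-seq libraries, with a difference of 0.00104 ± 0.373 points, yet its bins differed in both directions. The bin at 77400001 to 77410000 had 9.89% after sleep deprivation, against 3.47% in the DDD-seq control, with 5.68% in the ACE-seq control. The bin at 77310001 to 77320000 had 5.69% after sleep deprivation, against 9.21% in the DDD-seq control, with 8.91% in the ACE-seq control. These bins were picked for their differences. The last 8 bins of the gene averaged 5.29% after sleep deprivation, against 4.16% in the DDD-seq control, but without the first of these bins 4.63% and 4.25%. The median over bins, unlike the mean, differed by 1.16-fold, with 5.45% after sleep deprivation, against 4.71% in the DDD-seq control.

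The other 6 genes differed by less than 1.1-fold between the DDD-seq libraries. Fut9 was higher by 0.179 ± 0.246 points and Mgat4c by 0.118 ± 0.0957 points in the sleep-deprived library. St3gal3 differed by -0.152 ± 0.0833 points, a ratio of 0.915 just inside the bound, Hs6st3 by -0.103 ± 0.0753, Hs3st4 by -0.0558 ± 0.0867 and St6galnac3 by -0.0545 ± 0.0512. Each of these differences was under 2 times its SE over bins.

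The second comparison set the ACE-seq control against the DDD-seq control, 1 library of each method. It shares the DDD-seq control with the first comparison, so a high or low value in that library enters both. Of the 8 genes, 3 were lower by at least 1.1-fold by ACE-seq, St3gal3, Hs6st2 and St6galnac3, and none was higher, against 12.9% lower, 2.57% higher and 15.5% in either direction over all genes. By a bound of 0.25 points, 2 of the 8 differed, St3gal3 and Hs6st2, as did 6.05% of all genes. The median ratio over the 1091 genes was 0.970 and the median difference -0.0526 points, so ACE-seq was slightly lower in general.

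St3gal3 had 1.47% by ACE-seq and 1.79% in the DDD-seq control, a difference of -0.323 ± 0.102 points with 15 of 21 bins lower and a ratio of 0.820. Only 1.56% of all genes had a larger ratio of change in either direction. St6galnac3 had 1.66% by ACE-seq and 1.87% in the DDD-seq control, a difference of -0.207 ± 0.0552 points with 41 of 54 bins lower and a ratio of 0.889. These were the 2 genes of the 8 beyond 3 SE, at 3.16 and 3.75 SE, against 1.01% of all genes that were lower by that margin. Once the median difference of all genes was removed, the values were -0.270 and -0.155 points, or 2.65 and 2.80 SE, and neither passed the bound, which 0.183% of all genes then passed on the lower side and 0.275% on the higher side. When each library was divided by its own median gene-body level, the ratio of St6galnac3 became 0.914, short of 1.1-fold.

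Hs6st2 had 2.08% by ACE-seq and 2.45% in the DDD-seq control, a difference of -0.378 ± 0.172 points with 22 of 31 bins lower and a ratio of 0.846. It was thus below the DDD-seq control in both other libraries, which 2.47% of the 1091 genes were by at least 1.1-fold. Hs6st2 lies on the X chromosome, where 28.6% of 49 genes were lower by this margin by ACE-seq, against 12.2% of autosomal genes, and 10.2% were lower in both other libraries, against 2.11% of autosomal genes. Fut8 (-0.0445 ± 0.300 points), Fut9 (-0.211 ± 0.280), Hs6st3 (-0.0779 ± 0.0707), Hs3st4 (-0.0229 ± 0.104) and Mgat4c (-0.0131 ± 0.0891) each differed by less than 2 SE. For Fut8 and Fut9 the SE was large beside the differences seen elsewhere, since their bins vary widely, with an SD over bins of 2.20 and 2.19 points by ACE-seq and 2.38 and 2.43 points in the DDD-seq control.

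**Figure D4:**
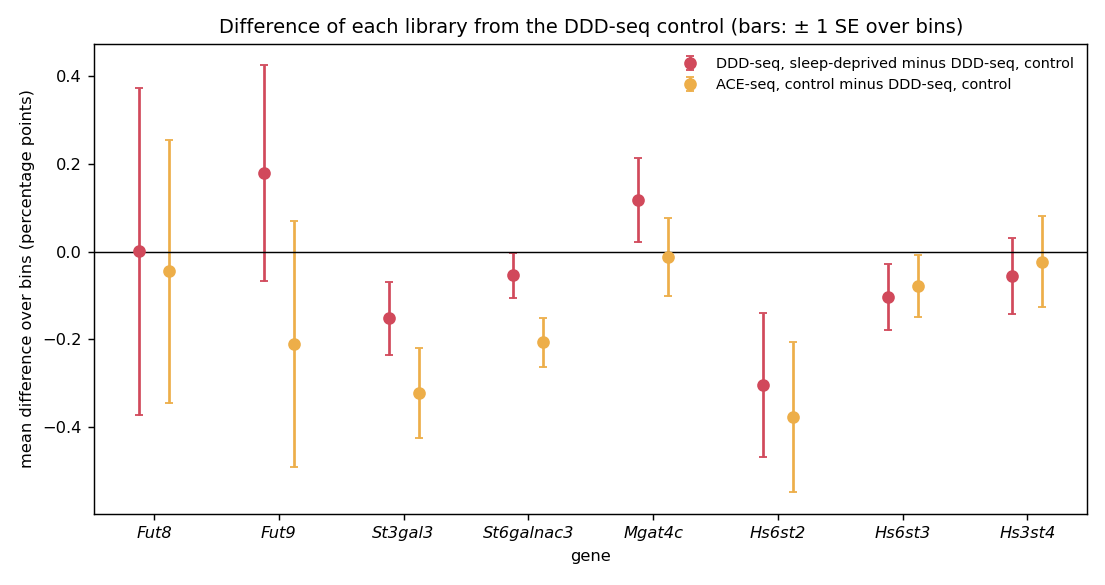
Mean difference over bins in percentage points (vertical axis) of the sleep-deprived DDD-seq library and of the ACE-seq control from the DDD-seq control for each gene (horizontal axis), with bars for ± 1 SE over bins. Hs6st2 lies below 0 in both comparisons (-0.305 and -0.378), St3gal3 and St6galnac3 lie farthest below 0 relative to their bars by ACE-seq (-0.323 and -0.207), and the bars of Fut8 and Fut9 cross 0.

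In the related lists outside the 8 genes, 6 of 43 genes were higher and 6 lower by 1.1-fold in the sleep-deprived library than in the DDD-seq control, against 15.8% and 16.9% of the 6664 genes of at least 5 bins. By ACE-seq 6 were higher and 10 lower than in the DDD-seq control, against 13.2% and 25.6%. These shares were near the background, and shorter genes have fewer bins and hence more scatter.

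The genes most like each of the 8 were sought over 6 values, the body and flank levels in the 3 libraries on the log2 scale, among genes of at least 20 bins. Fut8 was closest to Grik2, a kainate receptor gene with 4.94% in the sleep-deprived library, 5.05% in the ACE-seq control and 5.02% in the DDD-seq control (root mean square difference 0.104), and to Kctd8, an auxiliary GABA-B receptor subunit gene (0.119). Fut9 was closest to Fgf14, an intracellular fibroblast growth factor gene with 4.38%, 4.47% and 4.55% (0.139), and again to Grik2 (0.139). The low genes had closer neighbours: Kcnt2 was nearest to Mgat4c (0.0265), Gabbr2 to Hs6st2 (0.0489), Dock10 to Hs3st4 (0.0538), Vwa8 to St6galnac3 (0.0542), Cdkal1 to Hs6st3 (0.0570) and Prickle2 to St3gal3 (0.0625). The second neighbours were Fstl4 for St3gal3, Chst11 for St6galnac3, Synpr for Hs6st2, Gtdc1 for Hs6st3, Pcsk5 for Hs3st4 and L3mbtl4 for Mgat4c. This likeness rests on 3 libraries and describes level alone.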

How the data were processed

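The deposited table holds a fraction per 10 kb bin for each of 3 libraries, printed as percent. Bismark, Trimmomatic and FastQC are named in the submitters' processing notes, and per the file headers reads were trimmed, sorted and merged. The cytosine contexts, coverage filter and averaging are not given in the sources used here. Both DDD-seq columns have names that end in "all", which may mean that several runs or libraries were joined. Levels include any cytosine left unconverted, for which no control DNA was used here. The notes name hg19, but the bins cover 21 mouse chromosomes, whose last bins end 1.33 to 211.9 kb after the last RefSeq gene of GRCm38.p6, and GRCm38 was used. A body is all bins that a RefSeq gene overlaps by at least 1 bp, predicted transcripts included, and flanks are 10 bins on each side. Differences are mean paired differences over bins. Cytosine counts were not analysed here, and with 1 library per group no test was made. Python 3.11.15, numpy 2.4.6, pandas 2.3.3 and scipy 1.17.1 were used. The calculation of ratios between libraries was tested on simulated data, in which the known ratios were all farther from 1 than 1.1-fold. The 8 genes, the lists and the bounds (3%, 1.5, 1.1-fold, 3 SE) were chosen with earlier results of these data known. Named genes are the 8, the listed genes at or above 3% and the highest and lowest of each list in the DDD-seq control, and the 2 nearest genes by pattern. Ext1 was named beyond that rule, or after its value was seen. Artn and Kdm4a were named as neighbours that share bins with St3gal3, and Sulf1 and Hpse2 to give the content of their list. Alternatives were bins wholly inside a gene, medians, and leaving out bins at 0, shared bins or the highest bin, with other flanks, bounds and scaling.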

Additional observations from a re-analysis of the deposited data

How the results depend on the processing

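Under the 6 ways of taking a gene-body level, each of the 8 genes stayed within 2 SE over bins of its level in every library. Of the 144 values, 69 could not move, since no gene had a bin at 0 or without a value and only St3gal3 shared bins. In the other 75, leaving out the highest bin, edge bins or shared bins cannot shift a mean over so many bins by 2 SE. Only the 24 medians could have passed that bound, so this rests on them alone. Fut8 ranged between 5.01% and 5.45% after sleep deprivation, 4.86% and 5.43% by ACE-seq, and 4.71% and 5.43% in the DDD-seq control. For Fut9 the ranges were 4.89% to 5.34%, 4.31% to 4.97% and 4.66% to 5.24%. With a bound of 2% in place of 3%, 3 genes were called in the sleep-deprived library, 3 by ACE-seq and 4 in the DDD-seq control, where 34.6%, 32.0% and 34.4% of all genes passed. Between the DDD-seq libraries, medians over bins gave 4 genes past 1.1-fold (Fut8 1.16 and Mgat4c 1.13 times as high, Hs6st2 0.880 and Hs6st3 0.905), where 19.7% of all genes passed, and leaving out the highest bin gave 2 (Hs6st2 0.873, St3gal3 0.908), where 11.3% passed. Between the ACE-seq and DDD-seq controls, medians gave 5 (Fut9 0.846 and Hs6st3 0.908 beside St3gal3 0.774, Hs6st2 0.775 and St6galnac3 0.898), where 28.6% of all genes passed. The cause was not tested. The other 57 recomputed counts and medians stayed within 1.5 times, or 2 SE, of their values, some because the setting left their bins as they were. Leaving out flank bins with a protein-coding gene left 1 flank bin at St3gal3. No paired analysis was possible because each group has 1 library, and no replicate could be left out for the same reason. Depth limits every value to an unknown degree, since no read counts were analysed here.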
